A study of Mus musculus with 8 samples.

Results

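The cornified envelope genes described here comprise the late cornified envelope (Lce) family, its partners in the envelope, and the enzymes that cross-link or process them. Members were taken by gene symbol: every symbol that begins with Lce and a digit, together with a fixed list of structural proteins, transglutaminases, peptidylarginine deiminases and proteases. This gave 44 of the 32574 genes in the deposited table, of which 18 are Lce genes and 26 are other members, and 32530 genes lie outside the set. Of the listed symbols, 1 had no row of its own (Bleh, an alias of Blmh).

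RNA sequencing was carried out on epithelial cells of mouse skin epidermis that were isolated by fluorescence-activated cell sorting (FACS), in 8 libraries of polyadenylated RNA. The 4 groups hold 2 libraries each: K14 ablation, K14 control, Lrig1 ablation and Lrig1 control. Ablation samples are labelled as basal lineage ablation and control samples as wild type (WT), and the sources used here give no other allele, agent, age or time. K14 is a basal-layer keratin and Lrig1 a protein of hair follicle stem cells, but the sources used here do not say whether these names stand for a driver, for the cells that were sorted or for the cells that were ablated. No ablated gene is named, so the labels could not be checked against a target.

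The cornified envelope is the protein shell that replaces the plasma membrane of a keratinocyte as it becomes a dead squame of the skin surface. Envoplakin and periplakin form its scaffold, transglutaminases join involucrin, loricrin, small proline-rich and Lce proteins to it, and deiminases and proteases process filaggrin and other substrates in the outermost living layers. Many of the structural genes lie side by side in the epidermal differentiation complex and are switched on as cells leave the basal layer. In bulk libraries, fewer cells of a type and less RNA per cell cannot be told apart.

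The libraries held 6458636 to 11654135 reads. The values are normalised read counts, and a floor of 3 reads corresponds to 2.12 to 4.23 of them depending on the library, for counting error only. Members passed to testing when they reached 1 CPM (a read count scaled to library size) in at least 2 libraries, which left 25 of the 44: 24 of the 26 other members and 1 of the 18 Lce genes. Lce6a passed only through the Lrig1 control libraries, so it had to differ between groups. Tests were made with limma on log2(value + 1) across 18140 genes, with Benjamini-Hochberg adjustment over all of them and a threshold of 0.05, and this scale understates the change of low genes. Epithelial markers (Epcam, Cdh1, Cdh3) were present in every library, summing to 6693 to 10426. Replicates differed by more than sampling noise in each group, the chi-square statistic divided by its degrees of freedom being 27.7 in K14 ablation, 1.57 in K14 control, 39.5 in Lrig1 ablation and 2.58 in Lrig1 control, so each was counted as a library of its own. Separate animals are not stated for the libraries of a group, and p-values therefore reflect a spread between libraries that may be technical.

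Cornified envelope genes were lower in Lrig1 ablation than in Lrig1 control across most roles. By limma with Benjamini-Hochberg adjustment, 14 of the 25 tested members fell and 0 rose, while 4.06% of all tested genes passed, 3.3% as lower and 0.766% as higher. The 14 were the structural or linked proteins Lor, Cnfn, Kprp, Ppl, Evpl, Cdsn, Sbsn, Dmkn, Krtdap, Calm4 and Lgals7 and the enzymes Tgm1, Casp14 and Asprv1. The median log2 fold change was -1.89 over the tested members and -0.02 over all tested genes, and all 25 values were below 0. At an unadjusted p of 0.05 there were 20 members, against 20.1% of all tested genes. When values were scaled to the library totals, 366 genes fell and 551 rose over the whole table, against 598 that fell and 139 that rose as deposited, and 13 members fell and 0 rose. Both Lrig1 ablation libraries lay below both Lrig1 control libraries for 21 of the 25 members, against 26.4% of all tested genes. Lce6a is counted in these 21, in the 20 and in the 25 below 0, although the filter had set its direction. Calls were lost without either of the Lrig1 control libraries, over the whole table as over the members. The median over the members was -1.75 without Lrig1 control library 1 and -1.94 without library 2. Fewer members and genes also passed without either of the K14 control libraries, which enter only the common estimate of the spread. The median over the members was then the same.

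**Figure D1:**
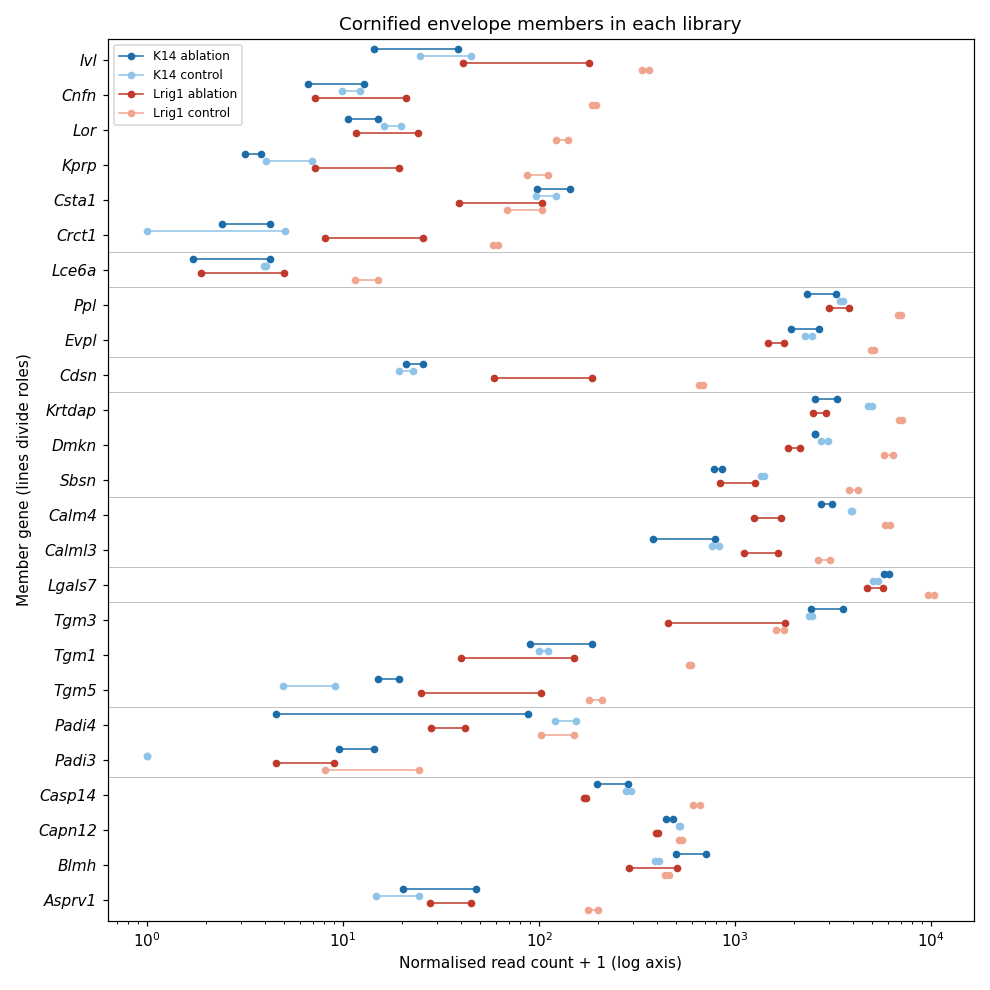
Normalised read count + 1 on a log axis for the 25 tested members, grouped by role. Each point is a library and each line joins the 2 libraries of a group. For 19 of the 25 members both Lrig1 control libraries lie above the other 6 libraries, which held for 15.3% of all tested genes. The 19 include Lce6a, which passed the filter only through Lrig1 control.

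Promoters are shown for 5 members whose levels carry this pattern or come from the Lce family: Lor, Ivl, Krtdap, Cnfn and Lce1d. Sequences are the 250 bases before the start of each gene in RefSeq (build GRCm38.p6), printed 5′ to 3′ on the gene's own strand, at chr3:92083143-92083392 (minus strand) for Lor, chr3:92573736-92573985 (minus) for Ivl, chr7:30787655-30787904 (plus) for Krtdap, chr7:25369725-25369974 (minus) for Cnfn and chr3:92687211-92687460 (minus) for Lce1d. Capitals mark matches on either strand to the words TATAAA (the TATA box), TGANTCA (an AP-1 word) or GGGNGTGG (a Krüppel-like factor word).
Lor: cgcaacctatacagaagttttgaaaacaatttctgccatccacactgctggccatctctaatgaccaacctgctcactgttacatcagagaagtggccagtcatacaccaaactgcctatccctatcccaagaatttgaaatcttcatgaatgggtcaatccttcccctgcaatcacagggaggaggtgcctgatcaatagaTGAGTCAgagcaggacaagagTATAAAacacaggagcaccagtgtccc
Ivl: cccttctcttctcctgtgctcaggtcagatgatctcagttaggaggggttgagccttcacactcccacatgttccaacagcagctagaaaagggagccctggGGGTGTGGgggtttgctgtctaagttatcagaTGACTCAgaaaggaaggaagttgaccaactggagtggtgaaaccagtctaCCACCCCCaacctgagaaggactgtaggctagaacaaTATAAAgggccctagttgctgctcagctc
Krtdap: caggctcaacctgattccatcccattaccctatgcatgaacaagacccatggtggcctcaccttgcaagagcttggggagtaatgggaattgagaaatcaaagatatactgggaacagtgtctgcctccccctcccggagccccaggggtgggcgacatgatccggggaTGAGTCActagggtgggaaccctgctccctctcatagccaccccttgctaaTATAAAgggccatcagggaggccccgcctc
Cnfn: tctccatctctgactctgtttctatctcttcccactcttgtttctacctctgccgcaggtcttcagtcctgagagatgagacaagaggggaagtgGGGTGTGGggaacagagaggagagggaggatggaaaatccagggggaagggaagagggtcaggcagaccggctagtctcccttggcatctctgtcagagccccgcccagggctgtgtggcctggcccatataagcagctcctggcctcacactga
Lce1d: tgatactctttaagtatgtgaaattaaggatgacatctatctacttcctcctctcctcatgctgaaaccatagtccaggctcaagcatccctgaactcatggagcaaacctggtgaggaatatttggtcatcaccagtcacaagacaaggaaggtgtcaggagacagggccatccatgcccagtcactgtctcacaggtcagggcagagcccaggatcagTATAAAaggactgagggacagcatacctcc
In Lor the AP-1 word began 48 bases and the TATA box 27 bases before the start. Ivl held the Krüppel-like word at 148 and 66 bases, the AP-1 word at 116 bases and the TATA box at 29 bases. Krtdap held the AP-1 word at 81 bases and the TATA box at 30 bases, Cnfn held the Krüppel-like word at 155 bases, and Lce1d held the TATA box at 30 bases.

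RefSeq promoters were matched for 38 members, 17 of them Lce genes. The AP-1 word occurred in 6 of the 38 (Dmkn, Ivl, Krtdap, Lor, Padi4 and Sbsn) and in 6.75% of all 32851 promoters of the same length. The TATA box occurred in 8 of the 38 and in 12.4% of all promoters, and the Krüppel-like word in 4 (Casp14, Cnfn, Ivl and Padi2) and in 15.9% of all. Among the 17 Lce promoters, 3 held the TATA box, and 0 held the AP-1 or Krüppel-like word in these windows. The grainyhead-like word AACCGGTT was found in 0 of the 38 windows and in 0.116% of all promoters. A match describes these letters only and is not a binding site.

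Among the precursors, loricrin (Lor), a glycine-rich protein that makes up most of the mature envelope's mass, had 10.65 and 23.1 normalised reads in Lrig1 ablation and 139 and 121 in Lrig1 control. In K14 ablation Lor had 14.2 and 9.65 and in K14 control 15.2 and 18.7. Lor was thus low in all libraries but the Lrig1 controls, and the Lrig1 groups did not overlap. Lor fell in Lrig1 ablation, with a log2 fold change of -2.96 (SE 0.42, limma adjusted p 0.0126).

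Involucrin (Ivl), an early scaffold precursor and transglutaminase substrate, had 39.9 and 179 in Lrig1 ablation and 364 and 334 in Lrig1 control. In K14 ablation it had 13.4 and 37.5, and in K14 control 43.7 and 23.6. The Lrig1 groups did not overlap, but the Lrig1 ablation libraries lay far apart, and the log2 fold change of -2.03 (SE 0.70) did not pass (limma adjusted p 0.159).

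Cornifelin (Cnfn), a small envelope component, averaged 13.1 ± 9.68 in Lrig1 ablation and 189 ± 7.49 in Lrig1 control (SD, n = 2 each), the largest fall among the 14 (log2 fold change -3.95, SE 0.55, limma adjusted p 0.0118). Kprp, a keratinocyte proline-rich protein, averaged 12.3 ± 8.55 in Lrig1 ablation and 98.0 ± 16.8 in Lrig1 control (log2 fold change -3.06, SE 0.57, limma adjusted p 0.0285). Both genes were at or below 19.9 in every library outside Lrig1 control. Crct1, a cysteine-rich C-terminal protein of the same gene cluster, averaged 15.9 ± 12.4 in Lrig1 ablation and 58.8 ± 2.53 in Lrig1 control and did not pass (log2 fold change -2.05, SE 0.86, limma adjusted p 0.232). Csta1, a cystatin A family protease inhibitor, averaged 70.1 ± 45.1 in Lrig1 ablation and 85.1 ± 24.6 in Lrig1 control, and the groups overlapped. Of the 6 precursors tested, 3 fell in Lrig1 ablation. The size of the fall depended on the ablation library: without Lrig1 ablation library 1 the log2 fold change was -3.19 for Cnfn and -2.35 for Kprp, and without library 2 it was -4.72 for Cnfn and -3.77 for Kprp.

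The Lce genes encode small proteins that are added late to the envelope, and they were close to absent in these libraries. Summed over the 18 Lce genes, 4 and 17 reads were found in Lrig1 ablation, or 0.451 and 1.87 CPM (95% exact Poisson intervals 0.123 to 1.15 and 1.09 to 2.99). Lrig1 control had 52 and 47 reads, or 6.82 and 7.28 CPM (intervals 5.1 to 8.95 and 5.35 to 9.68). Both Lrig1 control libraries were above the upper bound of either Lrig1 ablation library.

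In the K14 libraries the Lce sum was low throughout, with 3 and 9 reads in K14 ablation (0.257 and 1.16 CPM, intervals 0.0531 to 0.752 and 0.53 to 2.2). K14 control had 10 and 10 reads (1.21 and 1.17 CPM, intervals 0.58 to 2.22 and 0.559 to 2.14). K14 ablation library 1 lay below the intervals of both K14 controls and library 2 within them, and no test of the sum was made. All intervals cover counting error only, since the sources used here name no removal of duplicates by molecular identifiers and amplified copies are not separate molecules.

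**Figure D2:**
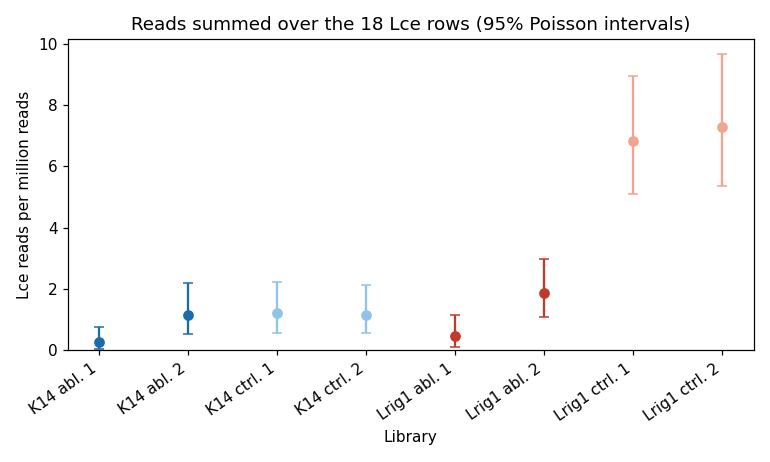
Reads summed over the 18 Lce genes in each library, in CPM, with 95% Poisson intervals for counting error. The Lrig1 control libraries stand at 6.82 and 7.28 CPM, and the other 6 libraries at or below 1.87.

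The Lce reads were spread over many genes in Lrig1 control, where 14 and 12 of the 18 had at least 1 read, against 4 and 6 in Lrig1 ablation. No Lce gene had more than 11 reads in any library. Lce1a1, which had 1 and 6 reads in Lrig1 ablation and 7 and 11 in Lrig1 control, and Lce6a, with 1 and 5 reads in Lrig1 ablation and 9 and 10 in Lrig1 control, had the most. Lce1g had 0 and 0 reads in Lrig1 ablation and 3 and 6 in Lrig1 control, and Lce1d 0 and 0 in Lrig1 ablation and 4 and 5 in Lrig1 control. The Lce3 subfamily (Lce3a, Lce3b, Lce3c and Lce3f) had 0 to 2 reads per gene in every library. Lce6a, the member of the family that could be tested, had a log2 fold change of -2.10 in Lrig1 ablation (SE 0.72, limma adjusted p 0.154). The filter had set the direction of this change. When the filter was left out, Lce1b, Lce1d and Lce1g passed as lower in Lrig1 ablation, on at most 6 reads per library. Lce genes share sequence: apart from Lce6a and Lce1m, between 9.66% (Lce1l) and 48.0% (Lce3f) of the 50-base words of each Lce gene also occur in other genes, so reads may have been split or dropped and single Lce genes are uncertain.

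The plakins form the scaffold beneath the membrane on which the envelope is built. Envoplakin (Evpl) had 1469 and 1767 in Lrig1 ablation and 4953 and 5111 in Lrig1 control. In K14 ablation Evpl had 2665 and 1920.0, and in K14 control 2269.8 and 2462. The Lrig1 ablation libraries were the lowest of the 8 for Evpl, the K14 groups overlapped, and Evpl fell in Lrig1 ablation (log2 fold change -1.64, SE 0.19, limma adjusted p 0.00552). Periplakin (Ppl), its partner, averaged 3406 ± 568 in Lrig1 ablation and 6889.5 ± 147 in Lrig1 control (log2 fold change -1.03, SE 0.20, limma adjusted p 0.0326). Ppl no longer passed when values were scaled to the library totals.

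The genes Sbsn, Dmkn and Krtdap, which lie within 39.63 kb of each other on chromosome 7 and encode secreted proteins of differentiating keratinocytes, all fell in Lrig1 ablation. Suprabasin (Sbsn) had 832 and 1263 in Lrig1 ablation and 3787 and 4246 in Lrig1 control (log2 fold change -1.97, SE 0.20, limma adjusted p 0.00342). Dermokine (Dmkn) had 2142 and 1852 in Lrig1 ablation and 5755 and 6366 in Lrig1 control (log2 fold change -1.60, SE 0.15, limma adjusted p 0.00245). Krtdap had 2892 and 2504 in Lrig1 ablation and 7091 and 6826 in Lrig1 control (log2 fold change -1.37, SE 0.17, limma adjusted p 0.008). The Lrig1 groups did not overlap for any of the 3, and the libraries of a group lay close together for Dmkn and Krtdap. Of the 50-base words of Sbsn, 6.96% also occur in other genes, and its exons overlap those of Tmem147os.

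Corneodesmosin (Cdsn), the adhesive protein that holds squames together, averaged 121 ± 89.8 in Lrig1 ablation and 668 ± 25.3 in Lrig1 control and fell (log2 fold change -2.68, SE 0.47, limma adjusted p 0.0232). In K14 ablation Cdsn averaged 22.2 ± 3.43 and in K14 control 19.97 ± 2.39. In Lrig1 the log2 fold change of Cdsn was -1.85 without ablation library 1 and -3.51 without library 2. The K14 levels of Cdsn lay below even the lower Lrig1 ablation library, at 57.7.

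Calm4, a calmodulin-like calcium-binding protein of the epidermis, had 1705 and 1248 in Lrig1 ablation and 5816 and 6145 in Lrig1 control. In K14 ablation Calm4 had 3101 and 2739, and in K14 control 3954 and 3894. Neither pair of groups overlapped, and the Lrig1 fall was the one with the lowest adjusted p among the members (log2 fold change -2.03, SE 0.18, limma adjusted p 0.00207). Calml3, its neighbour within 35.78 kb on chromosome 13, averaged 1382 ± 389 in Lrig1 ablation and 2840.0 ± 296 in Lrig1 control and did not pass (log2 fold change -1.06, SE 0.32, limma adjusted p 0.116). Galectin-7 (Lgals7), a galactoside-binding lectin of stratified epithelia, averaged 5191 ± 705 in Lrig1 ablation and 9972 ± 522 in Lrig1 control and fell (log2 fold change -0.95, SE 0.17, limma adjusted p 0.0229). Per kilobase of exon, Lgals7 had the highest level of the members in Lrig1 control (10757 per kb), followed by Krtdap (10248 per kb) and Calm4 (6522 per kb).

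Of the 3 transglutaminases tested, enzymes that cross-link glutamine and lysine residues, 1 passed in Lrig1 ablation (Tgm1). Transglutaminase 1 (Tgm1), the membrane-bound form, had 39.0 and 149 in Lrig1 ablation and 582 and 591 in Lrig1 control, with no overlap. Tgm1 had 185 and 89.0 in K14 ablation and 109.7 and 98.5 in K14 control, which overlapped. Tgm1 fell in Lrig1 ablation (log2 fold change -2.92, SE 0.56, limma adjusted p 0.0318), with values of -1.97 without ablation library 1 and -3.87 without library 2.

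Tgm3, a cytosolic form that needs proteolytic activation, had 1803 and 454 in Lrig1 ablation and 1623 and 1768 in Lrig1 control. The Lrig1 controls lay between the ablation libraries, so the groups overlapped and the direction rested on 1 library. For Tgm3 the log2 fold change came to -0.90 (SE 0.53, limma adjusted p 0.389), it was 0.09 without Lrig1 ablation library 2 (limma adjusted p 0.824), and it passed as lower, at -1.90, without Lrig1 ablation library 1. In K14 ablation Tgm3 had 3541 and 2444, and in K14 control 2389.7 and 2465.

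Tgm5, an epidermal form active in the upper layers, had 24.0 and 101 in Lrig1 ablation and 207 and 179 in Lrig1 control. In K14 ablation Tgm5 had 14.2 and 18.2, and in K14 control 8.125 and 3.94. Both Lrig1 ablation libraries were below their controls and both K14 ablation libraries above theirs. Neither effect passed: the log2 fold change was -1.94 in Lrig1 (SE 0.62, limma adjusted p 0.133) and 1.35 in K14 (SE 0.62, limma adjusted p 0.414).

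Caspase-14 (Casp14), which takes part in filaggrin breakdown, had 172 and 168 in Lrig1 ablation and 664 and 605 in Lrig1 control. Casp14 had 284 and 197 in K14 ablation and 295 and 277 in K14 control. The Lrig1 ablation libraries were the lowest of the 8 and close to each other, and Casp14 fell (log2 fold change -1.89, SE 0.19, limma adjusted p 0.00342). Asprv1, the skin aspartic protease that cleaves profilaggrin, averaged 35.2 ± 12.1 in Lrig1 ablation and 188 ± 15.4 in Lrig1 control and fell (log2 fold change -2.42, SE 0.47, limma adjusted p 0.0317). Bleomycin hydrolase (Blmh), which degrades filaggrin peptides, and Capn12, a calpain of skin and hair follicle, did not pass. Blmh averaged 395 ± 156 in Lrig1 ablation and 447 ± 14.3 in Lrig1 control, and Capn12 averaged 399 ± 6.13 in Lrig1 ablation and 524 ± 12.1 in Lrig1 control. Exons of Capn12 and of Tgm1 overlap those of other annotated genes, and the sources used here do not give the strand setting of the counting.

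The deiminases convert arginine to citrulline in filaggrin, keratins and other proteins. Padi3, the hair follicle and upper epidermal form, had 3.55 and 7.96 in Lrig1 ablation and 23.3 and 7.05 in Lrig1 control, which overlapped. Padi4, best known from neutrophils, had 40.8 and 27.1 in Lrig1 ablation and 149 and 101 in Lrig1 control, with no overlap and no pass (log2 fold change -1.86, SE 1.11). Padi1 and Padi2 stayed under the filter, with 0 to 5 reads in any library.

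**Figure D3:**
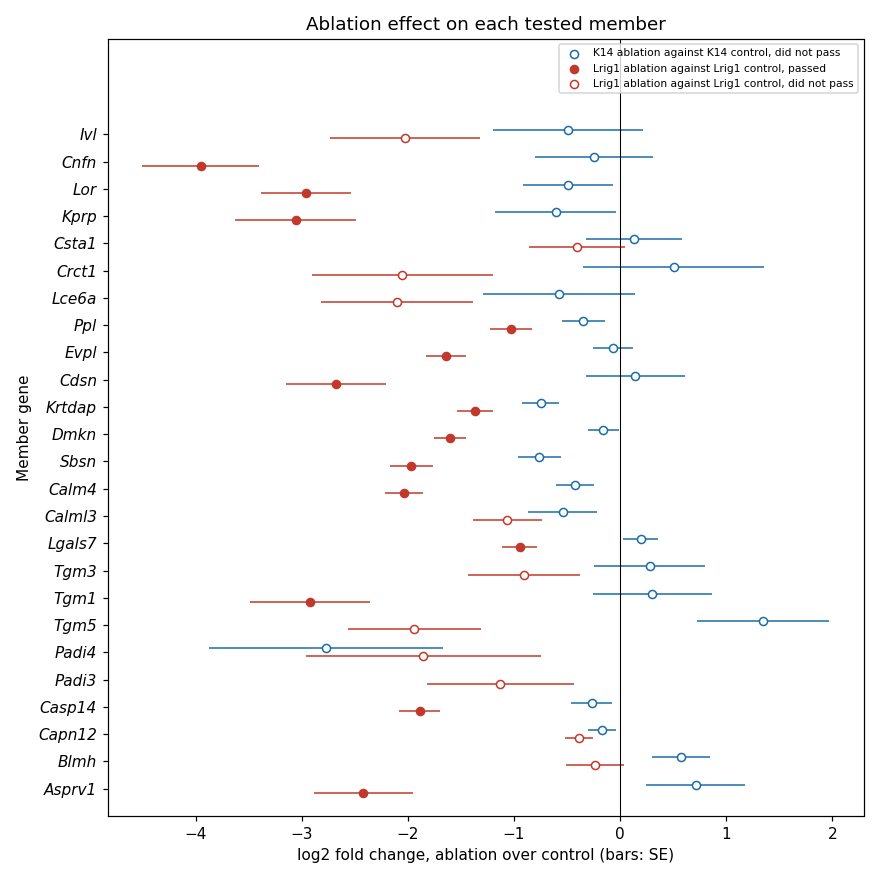
Log2 fold change of ablation over control for the 25 tested members, with SE bars, filled where limma passed. Lrig1 effects lie between -3.95 and -0.23, and K14 effects scatter on both sides of 0. The K14 effect of Padi3 is not drawn because both K14 controls were at 0.

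The Lrig1 ablation libraries differed from each other more often over the tested members than over all tested genes. A gap of over 2-fold between them was seen for 11 of the 25 tested members (44.0%), against 18.8% of all tested genes. Library 2 was the higher in 9 of the 11, and lower for Tgm3 and Csta1. Over all tested genes library 2 was over 2-fold higher for 2274 and over 2-fold lower for 1136. In K14 ablation the share with such a gap was 24.0% of members, against 12.7% of all tested genes. In both control groups it was 4.0% of members, against 3.69% of all tested genes in K14 control and 5.88% in Lrig1 control. The percentages of the Lrig1 control mean that remained in Lrig1 ablation libraries 1 and 2 were 3.28% and 10.5% for Cnfn and 6.66% and 25.4% for Tgm1. For Ivl they were 11.4% and 51.3%, and for Tgm5 12.4% and 52.35%. Casp14 stood apart from these, at 27.15% and 26.5% in the same libraries. Basal keratinocyte markers (Krt5, Krt14, Itga6, Itgb4, Col17a1, Trp63) summed to 202443 in Lrig1 ablation library 1 and 84819 in library 2, and to 101889 and 110852 in Lrig1 control. Their part in the spread of the members was not tested.

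**Figure D4:**
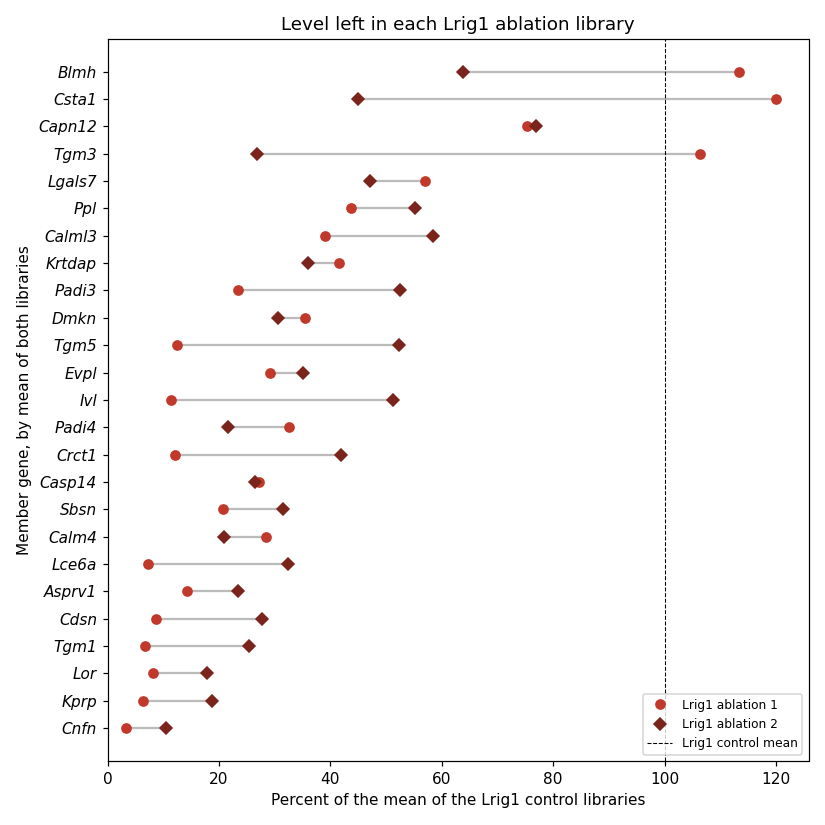
Percent of the mean of the Lrig1 control libraries in each Lrig1 ablation library, for the 25 tested members ordered by their mean. Library 2 is over 2-fold higher for 9 members, such as Cnfn at 3.28% and 10.5%, whereas Tgm3, at 106% and 26.8%, and Csta1, at 120.0% and 44.9%, are higher in library 1. Of all tested genes 2274 were over 2-fold higher in library 2 and 1136 over 2-fold lower.

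Of the marker lists for other cells or layers, some were lower in Lrig1 ablation than in Lrig1 control and some were not. Suprabasal keratinocyte markers (Krt1, Krt10, Krt77, Dsg1a, Dsc1) summed to 35397 and 36359 in Lrig1 ablation and 119580.0 and 135330.0 in Lrig1 control, and 3 of the 5 fell by limma. Hair cortex and cuticle keratins (Krt31, Krt35, Krt81, Krt86, Krt87) summed to 28.7 to 39.9 in Lrig1 ablation and 586 to 1250.4 in Lrig1 control, and 4 of 5 fell. Endothelial markers (Pecam1, Cdh5, Kdr, Sele) summed to 48.8 to 112 in Lrig1 ablation, where Sele was at 0 in both libraries, and to 576 to 620.2 in Lrig1 control, and 3 of 4 fell. Langerhans and myeloid markers (Cd207, Ptprc, Cd74, H2-Aa) summed to 104 to 106 in Lrig1 ablation and 696 to 935 in Lrig1 control, and 1 of 4 fell. Melanocyte markers (Dct, Tyrp1, Pmel, Mlana) summed to 254 to 345 in Lrig1 ablation and 248 to 266 in Lrig1 control, and fibroblast markers (Pdgfra, Col1a1, Col1a2, Dcn) to 147 to 244 in Lrig1 ablation and 144 to 219.9 in Lrig1 control. Sebocyte markers (Mgst1, Scd1, Scd3, Awat1) summed to 4418 to 6629 in Lrig1 ablation and 6276 to 6346 in Lrig1 control. Most of this sum was Scd1, which overlapped between the Lrig1 groups, as did Mgst1. Scd3 (24.8 and 58.1 in Lrig1 ablation, 158 and 111 in Lrig1 control) was lower without overlap. So was Awat1 (6.21 and 10.3 in Lrig1 ablation, 24.4 and 21.1 in Lrig1 control). For these 3 lists 0 markers passed by limma, with 1 sebocyte marker at an unadjusted p of 0.05 and 0 of the others. The part of any of these lists in the fall of the cornified envelope genes was not tested.

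In K14 ablation the fold changes of the members lay on both sides of 0. By limma with Benjamini-Hochberg adjustment 0 of the 25 tested members passed in K14 ablation against K14 control, with 0.187% of all tested genes called. At an unadjusted p of 0.05 there were 5 members, against 12.8% of all tested genes. Of the members edgeR called 0 and DESeq2 called 1 (Krtdap), against 32 and 220 of the 18140 tested genes. The groups did not overlap for 9 members that were lower, against 25.7% of all tested genes, and for 4 that were higher, against 27.4%. The median log2 fold change was -0.17 over the tested members, with Padi3 at its bound or as fitted, and -0.002 over all tested genes. Calls in K14 moved when an ablation library was left out, over the whole table as over the members. Over the whole table they also moved when a control library was left out. The Lrig1 ablation libraries enter here only through the common spread. The median over the members was -0.155 without K14 ablation library 1 and -0.103 without K14 ablation library 2.

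Among the members with the lowest p in K14, Padi3 had 13.4 and 8.58 in K14 ablation and 0 and 0 in K14 control. Measured against the floor of 3 reads per library this was at least 3.67-fold higher, with no overlap (limma adjusted p 0.128). Krtdap had 2555 and 3292 in K14 ablation and 4992 and 4768 in K14 control (log2 fold change -0.75, SE 0.17, limma adjusted p 0.169). Sbsn had 779.7 and 851 in K14 ablation and 1359.9 and 1404 in K14 control (log2 fold change -0.76, SE 0.20, limma adjusted p 0.212). Neither Krtdap nor Sbsn overlapped between the K14 groups. Dmkn, which lies between them on chromosome 7, had 2551 and 2559 in K14 ablation and 2963 and 2740.0 in K14 control.

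Padi4 had 3.54 and 86.8 in K14 ablation and 119.8 and 153 in K14 control, and both K14 ablation libraries were below their controls but far apart from each other (log2 fold change -2.77, SE 1.11, limma adjusted p 0.354). Calm4 had a log2 fold change of -0.43 in K14 (SE 0.18, limma adjusted p 0.37). Of Lor, Ivl, Tgm1, Tgm3 and Casp14, all given above, only Lor did not overlap between the K14 groups (log2 fold change -0.49, SE 0.42, limma adjusted p 0.659). Tgm5, also given above, had a K14 log2 fold change of 1.35. The remaining members had K14 log2 fold changes between -0.61 (Kprp) and 0.71 (Asprv1).

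Whether the ablation effects differed between Lrig1 and K14 was tested directly. By limma with Benjamini-Hochberg adjustment 0 of the 25 tested members passed, with 0.198% of all tested genes called. At an unadjusted p of 0.05 there were 16 members, against 15.0% of all tested genes. Of the members edgeR called 0 and DESeq2 called 10, all more negative in Lrig1, against 32 and 308 of the 18140 tested genes. The lowest adjusted p values by limma were 0.0522 for Dmkn (difference of log2 fold changes -1.45, SE 0.21), 0.0645 for Calm4 (-1.61, SE 0.25), and 0.0652 for both Evpl (-1.58, SE 0.27) and Casp14 (-1.62, SE 0.27). The difference was below 0 for 24 of the 25 members, with a median of -1.54 against -0.03 over all tested genes. The 14 passes in Lrig1 and 0 in K14 are therefore not shown to differ gene by gene. Calls depended on the ablation libraries, over the whole table as over the members, and over the whole table on the control libraries too. The median difference over the members was -1.55 without Lrig1 ablation library 1 and -1.60 without Lrig1 ablation library 2. It was -1.448 without either of the K14 ablation libraries.

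The control groups were themselves far apart. In Lrig1 control against K14 control 17 of the 25 tested members were higher by limma with Benjamini-Hochberg adjustment and 0 lower, while 8.79% of all tested genes passed in either direction, 6.52% as higher and 2.27% as lower. The median log2 fold change was 1.54 over the tested members and -0.005 over all tested genes, and the groups did not overlap for 21 members that were higher, against 34.5% of all tested genes, and for 1 that was lower (Tgm3), against 34.4%. The 21 include Lce6a, which passed the filter only through Lrig1 control. The Lrig1 control libraries enter this comparison and the Lrig1 ablation comparison alike, so the same values stand behind both. Calls fell when any control library was left out, over the whole table as over the members. The median over the members was 1.389 without Lrig1 control library 1 and 1.334 without Lrig1 control library 2. It was 1.513 without K14 control library 1 and 1.559 without K14 control library 2.

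Cdsn had the largest difference between the controls, averaging 668 ± 25.3 in Lrig1 control and 19.97 ± 2.39 in K14 control (log2 fold change 5.0, SE 0.47, limma adjusted p 0.00302). Tgm5 averaged 193 ± 19.9 in Lrig1 control and 6.03 ± 2.96 in K14 control (log2 fold change 4.85, SE 0.62, limma adjusted p 0.00541). Kprp, Cnfn, Ivl and Asprv1 were also more than 8-fold higher, with log2 fold changes of 4.22, 4.12, 3.40 and 3.31. Crct1 had only 4 and 0 reads in K14 control, and its log2 fold change of 4.73 (SE 0.86) was 5.90 without K14 control library 1 and 3.56 without library 2. Padi3 was at least 5.05-fold higher, with K14 control at 0, and this bound was 2.35-fold without Lrig1 control library 1 and 7.76-fold without library 2 (chosen after seeing the data). Lor had a log2 fold change of 2.87, Tgm1 of 2.48 and Calml3 of 1.83. For the others that passed the differences were smaller, between 0.94 (Lgals7) and 1.54 (Sbsn), with Casp14, Dmkn, Evpl and Ppl in between. Krtdap (0.51, limma adjusted p 0.112) and Calm4 (0.61, limma adjusted p 0.078) did not pass.

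The marker lists differed between the controls in both directions. Hair cortex and cuticle keratins summed to 586 and 1250.4 in Lrig1 control and 26.4 and 29.5 in K14 control, and all 5 were higher by limma. Endothelial markers summed to 576 to 620.2 in Lrig1 control and 59.1 to 73.1 in K14 control, where Kdr was at 0 in both libraries, and 3 of 4 were higher. Suprabasal markers summed to 119580.0 to 135330.0 in Lrig1 control and 71233 to 75738 in K14 control, and 2 of 5 were higher. Langerhans and myeloid markers summed to 696 to 935 in Lrig1 control and 252 to 375 in K14 control, and fibroblast markers to 144 to 219.9 in Lrig1 control and 78.2 to 78.8 in K14 control, with 2 of 4 higher in each list. Basal keratinocyte markers summed to 101889 to 110852 in Lrig1 control and 174481 to 177370.0 in K14 control, sebocyte markers to 6276 to 6346 in Lrig1 control and 10893 to 10929 in K14 control, and melanocyte markers to 248 to 266 in Lrig1 control and 242 to 265 in K14 control. In these 3 lists 0 markers passed by limma, with 4 of 6 basal markers at an unadjusted p of 0.05 and 0 of the others. The sebocyte sum was mostly Scd1 (5281 and 5412 in Lrig1 control, 9686 and 9813 in K14 control). Mgst1 was also lower in Lrig1 control, while Scd3 and Awat1 went the other way. Scd3 had 158 and 111 in Lrig1 control and 65.0 and 56.1 in K14 control. Awat1 had 24.4 and 21.1 in Lrig1 control and 6.09 and 1.97 in K14 control. The part of any of these lists in the difference of the cornified envelope genes was not tested.

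Between the ablation groups the members were mixed. In Lrig1 ablation against K14 ablation 0 of the 25 tested members passed by limma with Benjamini-Hochberg adjustment, with 0.667% of all tested genes called. At an unadjusted p of 0.05 there were 12 members, against 16.4% of all tested genes. Of the members edgeR called 0 and DESeq2 called 5 (Calm4, Calml3, Cdsn, Ivl and Tgm5), against 135 and 664 of the 18140 tested genes. The median log2 fold change was 0.18 over the tested members and -0.02 over all tested genes, and the groups did not overlap for 6 members that were higher, against 19.0% of all tested genes, and 8 that were lower, against 20.0%. Calm4 had a log2 fold change of -1.0 (SE 0.18, limma adjusted p 0.057), Cdsn of 2.18 (SE 0.47, limma adjusted p 0.095) and Calml3 of 1.31 (SE 0.32, limma adjusted p 0.132). Calls depended on which ablation library was left out, over the whole table as over the members. Over the whole table calls also moved when a control library was left out. The median over the members was 0.471 without Lrig1 ablation library 1 and -0.172 without Lrig1 ablation library 2. It was -0.213 without K14 ablation library 1 and 0.056 without K14 ablation library 2.

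On chromosome 3, 22 members lie between positions 92080271 and 93019060 of GRCm38, a span of 938.8 kb of the epidermal differentiation complex that begins with Lor and ends with Lce1m. The levels of neighbours in this span were unequal. Ivl, Lor, Kprp and Crct1 averaged 58.8 to 349 in Lrig1 control, and the 18 Lce genes between and beside them at most 12.3. Per kilobase of exon the gap was smaller, with 35.9 for Kprp to 182 for Ivl in Lrig1 control. Lce1a1, the highest Lce gene on this scale, had 16.8 per kb there. In Lrig1 ablation Ivl, Lor, Kprp and Crct1 averaged 12.3 to 109.5 and were each below both Lrig1 controls. The 4 deiminase genes lie within 206.7 kb on chromosome 4, where only Padi3 and Padi4 could be tested.

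**Figure D5:**
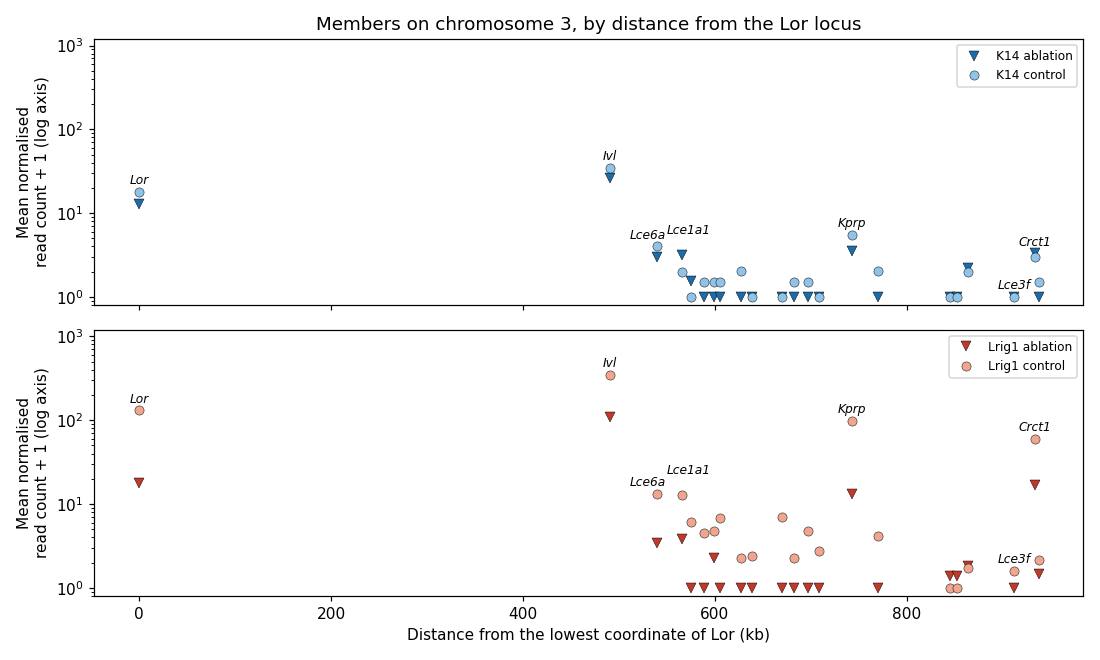
Mean normalised read count + 1 (log axis) of the 22 members on chromosome 3, by distance from the lowest coordinate of Lor, with K14 groups above and Lrig1 groups below. In the Lrig1 panel Ivl, Lor, Kprp and Crct1 stand above the Lce genes in both groups and lower in Lrig1 ablation than in Lrig1 control. Counts are not scaled to exon length.

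Other genes of cornification were described from a list of 46 tested genes outside the set. The list was chosen with earlier results of these data known, so its counts are a description and not independent support. In Lrig1 ablation 25 of the 46 fell and 0 rose by limma, with a median log2 fold change of -1.81. Of all tested genes 3.3% fell and 0.766% rose. The counts of this list were not repeated with a library left out. Among the other envelope precursors 6 of 14 fell, including the S100-fused proteins hornerin (Hrnr, -6.05) and filaggrin-2 (Flg2, -4.90) and the small proline-rich genes Sprr2d (-3.37), Sprr1a (-2.76) and Sprr1b (-2.24), besides Anxa1 (-0.86). Filaggrin (Flg) itself did not pass, at -3.56 (limma adjusted p 0.0754). Of the genes that make the lipid envelope 7 of 8 fell: the lipoxygenases Alox12b (-3.78) and Aloxe3 (-1.35), the fatty acid elongase Elovl4 (-2.53), Sdr9c7 (-3.53), Cyp4f39 (-1.87), Pnpla1 (-1.63) and the lipid transporter Abca12 (-1.48).

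Of the suprabasal keratins and desmosomal genes 5 of 8 fell in Lrig1 ablation: Krt2 (-3.98), Dsc1 (-2.60), Krt10 (-2.13), Dsg1a (-1.95) and Pkp1 (-0.92). Of the transcription factors 5 of 10 fell, among them Ovol1 (-2.01), Grhl3 (-1.87), Cebpa (-1.45) and Klf4 (-0.95). Of the proteases and inhibitors 2 of 6 fell, the inhibitor Spink5 (-2.14) and cathepsin D (Ctsd, -0.84). In K14 ablation 0 of the 46 passed by limma, with 15 at an unadjusted p of 0.05, against 12.8% of all tested genes. The difference of effects passed for 3 of the 46, each more negative in Lrig1, among them Elovl4 (limma adjusted p 0.0401) and Sdr9c7 (limma adjusted p 0.0475). Over all tested genes 0.198% passed for this difference. Between the controls 26 of the 46 were higher in Lrig1 control and 0 lower, against 6.52% and 2.27% of all tested genes. Spink5 was higher in Lrig1 ablation than in K14 ablation at the edge of the threshold (log2 fold change 2.68, SE 0.45, limma adjusted p 0.05). With the ablation groups fitted alone, 0 genes of the whole table passed in this comparison.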

How the data were processed

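Per the submitters' processing notes, reads were handled with Trimmomatic, STAR, Picard and HTSeq 0.11.1 on GRCm38 (mm10); the sources used here do not give their settings or strand. The authors deposited 1 table of normalised signal per gene. In every library 100% of its values were whole multiples of 1 step within a tolerance of 0.001, so read counts were recovered from the deposited values. Ablation goes by another word in 4 column names than in the labels; these were matched to the ablation groups as the only ones left, with 1.1 read as replicate 1.

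Values + 1 were tested on the log2 scale with limma 3.58.1 (R 4.3.3) in 1 fit of the 4 group means over 8 libraries, with 4 residual and 4.13 prior degrees of freedom, checked on simulated data. The comparisons were ablation against control in K14 and in Lrig1, the difference of these effects, and Lrig1 against K14 in control and in ablation. Genes needed 1 CPM in at least 2 libraries. Alternatives were pseudocounts of 0.5 and 4, no filter and a filter of 10 CPM, other scalings, edgeR 4.0.16 and DESeq2 1.42.0 on recovered reads, array weights, the compared groups alone, a replicate block and leaving out each library.

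Members and lists were chosen with earlier results of these data known. Every library's value is given for Lor, Ivl, Tgm1, Tgm3, Casp14 and Calm4 and for the 6 tested members with the lowest unadjusted p in each ablation comparison, and other members are given by mean, SD or range. Dmkn in K14 and Cdsn, Lce1a1, Lce1d and Lce1g were given library values after they had been seen. 1 gene of the lists is not reported here by name. Coordinates come from GENCODE M21, and the 50-base words from its transcripts.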

Additional observations from a re-analysis of the deposited data

Results flagged for a closer look

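For Tgm5 and Lgals7 the ablation libraries lay on opposite sides of their controls in K14 and Lrig1. For Tgm5 both K14 ablation libraries were above both K14 control libraries and both Lrig1 ablation libraries below both Lrig1 control libraries, with a difference of log2 fold changes (Lrig1 minus K14) of -3.29 (SE 0.88). For Lgals7 the same held, with a difference of -1.14 (SE 0.23). Of all tested genes, 27.4% did not overlap as higher in K14 ablation and 26.4% as lower in Lrig1 ablation. The share of all tested genes that did both was not counted, so Tgm5 and Lgals7 are not shown to stand out by this pattern. Tested directly by limma with Benjamini-Hochberg adjustment, neither difference passed (adjusted p 0.162 for Tgm5 and 0.0947 for Lgals7). Without either of the Lrig1 ablation libraries, calls for the difference of effects rose over the whole table as over the members. By itself, 1 of the effects passed, the fall of Lgals7 in Lrig1.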

How the results depend on the processing

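Calls over the whole table changed with the setting too. In K14 ablation they went from 34 to 477 genes with array weights. For the difference of effects they went from 36 to 146 genes with array weights and to 83 with a pseudocount of 4. Counts below are of tested members that passed. The ranges are those with each library left out in turn. In every comparison the highest member count came from fits in which calls over the whole table rose too. The upper ends of these ranges therefore do not set the members apart from other genes. In K14 ablation the 0 became 1 with DESeq2 and 3 with array weights, and ranged from 0 to 3 when each library was left out in turn. In Lrig1 ablation the 14 became 9 when the Lrig1 groups were fitted alone and ranged from 0 to 16 with a library left out. For the difference of effects the 0 became 2 with a pseudocount of 4, 10 with DESeq2 and 6 with array weights, and ranged from 0 to 15. Between the controls the 17 ranged from 0 to 19, and between the ablation groups the 0 became 5 with DESeq2 and ranged from 0 to 11. Tgm3, at -0.90 in Lrig1, was at -1.90 without Lrig1 ablation library 1 and turned to 0.09 without library 2. Of the other values of named members under the alternatives, 854 kept their direction and side of the threshold, 113 lost the threshold and 60 gained it. Scaling to the library totals raised the median log2 fold change of all genes by 0.248 in Lrig1 ablation, where 13 members passed (Ppl did not).

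The replicate numbers are not stated to pair libraries, and deviations of same-numbered libraries correlated between -0.0491 and 0.0838. With the replicate number as a block, 13 members passed in Lrig1 ablation (Ppl did not), 17 between the controls and 0 in the other comparisons. Over all genes the block gave 504 calls in Lrig1 ablation against 737 without it, and 1 against 36 for the difference of effects. The whole table also varied, from 737 calls in Lrig1 ablation to 5 or 6 without an Lrig1 control library and 170 with the Lrig1 groups alone. Depth limits the Lce genes, none of which had more than 11 reads in a library.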
